A study of Mus musculus with 26 samples.

Results

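The cholesterol synthesis genes described here are 8 genes chosen by name: Hmgcs1, Idi1, Fdft1, Sqle, Cyp51 and Dhcr7, which encode enzymes of the pathway, and Srebf2 and Insig1, which encode its regulators. Gene identifiers of the deposited count table were matched to mouse symbols, and 7 of the 8 genes were found among 37991 identifiers. Hmgcs1 was not matched and is not analysed here. No lipoprotein receptor is among the 8 genes, so the uptake of cholesterol is described through a wider pathway list. All 7 matched genes passed the filter on low counts in all 5 comparisons, in which 14478 to 16477 genes were tested.

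RNA was measured by polyA RNA-seq in 26 libraries of mice at postnatal day 24 (PN24). Of these, 22 were whole retinas of rd10 mice (genotype B6.CXB1-Pde6brd10/Jrd10), a model of retinitis pigmentosa in which a mutation of the rod phosphodiesterase gene Pde6b causes photoreceptors to die, so that controls and treated mice alike carried the mutation. Mice received intraperitoneal injections from PN9 to PN24 of the histone deacetylase inhibitor Romidepsin (3 libraries and 3 controls), the G9A/GLP inhibitor UNC0642 (2 and 2), the EZH2 inhibitor DZNep (2 and 4) or the EZH2 inhibitor UNC1999 (3 and 3). The remaining 4 libraries were rods sorted by FACS from mice of an rd10 cross with B6.Cg-Tg(Nrl-EGFP)1Asw/J, in which the rod Nrl promoter drives EGFP, with 2 libraries from mice given the LSD1 inhibitor GSK2879552 and 2 from control littermates. Controls received saline, whereas UNC1999 was given in a vehicle with DMSO, polyethylene glycol and Tween, so that the UNC1999 effect and its vehicle cannot be told apart. Both sexes were used. The labels raise the final number of the genotype and of compound names from library to library in the later groups, and the names of the series design are used here.

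Cells make cholesterol from acetyl-CoA through mevalonate, isoprenoids, squalene and lanosterol. The transcription factor SREBP2, encoded by Srebf2, drives most genes of this route. When sterols are plentiful, INSIG proteins hold SREBP2 and its escort SCAP in the endoplasmic reticulum, and when sterols fall SREBP2 is cleaved and enters the nucleus, so the genes of the pathway commonly move together. The retina makes cholesterol locally and also takes up lipoprotein cholesterol through the retinal pigment epithelium (RPE).

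Promoter sequences are shown for the regulators Srebf2 and Insig1 and for the enzyme gene Idi1, since their annotated starts coincide with the RefSeq starts to within 3 bases. Each is the 250 bases before the RefSeq start (sequence table build GRCm38.p6), matched letter for letter to the NCBIM37 genome used for the counts, 5′ to 3′ on the plus strand of the chromosome, with capitals marking CCAAT on either strand (ATTGG on the printed strand) and CACGTG. Insig1 lies at chr5:28397702-28397951, Srebf2 at chr15:81977449-81977698 and Idi1 at chr13:8884602-8884851.
Insig1: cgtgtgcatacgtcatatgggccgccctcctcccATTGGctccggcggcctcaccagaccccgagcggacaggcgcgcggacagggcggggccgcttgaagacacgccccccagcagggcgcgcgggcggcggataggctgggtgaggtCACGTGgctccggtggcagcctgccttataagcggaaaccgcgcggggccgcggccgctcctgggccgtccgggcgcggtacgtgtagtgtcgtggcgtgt
Srebf2: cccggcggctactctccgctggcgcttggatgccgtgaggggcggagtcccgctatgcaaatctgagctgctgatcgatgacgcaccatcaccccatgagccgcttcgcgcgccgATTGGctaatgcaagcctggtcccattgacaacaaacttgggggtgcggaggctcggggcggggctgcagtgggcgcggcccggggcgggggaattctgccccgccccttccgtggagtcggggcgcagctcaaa
Idi1: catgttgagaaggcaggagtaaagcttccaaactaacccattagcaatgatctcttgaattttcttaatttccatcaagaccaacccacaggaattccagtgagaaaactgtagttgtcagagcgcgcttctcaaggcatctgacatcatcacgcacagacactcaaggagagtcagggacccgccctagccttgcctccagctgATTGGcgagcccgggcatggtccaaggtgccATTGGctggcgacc

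Windows of 300 bases (250 before and 50 after a start) were present in the table for 6 of the 8 genes, and not for Sqle and Fdft1. CCAAT was found in at least 1 window of 6 of these 6 genes, against 41.1% of 27025 genes and 37.4% of 32851 windows, where a gene with several windows, such as Dhcr7, has more chances to match. In the Insig1 window it began 216 bases before the start, in the Srebf2 window 135 bases before it, and in the Idi1 window 45 and 14 bases before it. CACGTG, which reads the same on both strands, was found for 2 of the 6 genes, Insig1 and Dhcr7, against 8.09% of all genes. A sterol element written as TCACNCCAC was found in 1 window, that of Hmgcs1, against 1.44% of genes. A match describes letters in a window and does not show that a factor binds there.

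Of the genes measured, Srebf2 (ENSMUSG00000022463) lies at chr15:81977696-82035806 and Insig1 (ENSMUSG00000045294) at chr5:28397952-28405201. Idi1 (ENSMUSG00000058258), whose enzyme interconverts the isoprenoid building blocks, lies at chr13:8884852-8891641, and Fdft1 (ENSMUSG00000021273), squalene synthase, at chr14:63763990-63796630. Sqle (ENSMUSG00000022351), squalene epoxidase, lies at chr15:59146632-59162747, Cyp51 (ENSMUSG00000001467), lanosterol demethylase, at chr5:4081145-4104746, and Dhcr7 (ENSMUSG00000058454), the reductase of a last step, at chr7:151009050-151034315, all in NCBIM37. The exons of Fdft1 share 769 bases, 26.9% of their length, with Ctsb on the opposite strand. The mean count of Ctsb was 14601 against 1571 for Fdft1, and since whether reads were counted by strand is not given in the sources used here, Fdft1 values are uncertain. Total counts ran from 13732959 to 36354094 in retinas and from 7289460 to 19864491 in sorted rods, and the lowest count of any of the 7 genes in any library was 62, for Idi1.

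In control retinas, Srebf2 had the highest level per kb of exon of the 7 genes and Idi1 the lowest. In CPM (counts per 1000000 counts of a library) per kb of exon, the 12 control retinas ran from 44.1 to 56.5 for Srebf2 (median 49.8), from 21.4 to 29.9 for Fdft1 (26.9) and from 21.0 to 33.5 for Insig1 (25.8). Cyp51 ran from 11.5 to 15.8 (median 12.5), Sqle from 9.21 to 13.0 (10.7), Dhcr7 from 9.36 to 11.8 (10.4) and Idi1 from 1.66 to 6.62 (2.66). Fdft1 and Insig1 overlapped, as did Cyp51, Sqle and Dhcr7, while the other neighbours in this order did not overlap. Idi1 differed most between experiments: the 3 controls of the UNC1999 experiment had 16.6 to 19.0 CPM on a common scale, above the 9 other control retinas at 4.75 to 9.04 CPM. The UNC1999 experiment and the other 3 retina experiments carry different series of library names, and whether preparation, animals or another factor set this level was not tested.

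The 2 control libraries of sorted rods had another order. Their CPM per kb was 5.71 and 7.63 for Srebf2 and 4.25 and 4.60 for Insig1, below every control retina for both genes, and 6.47 and 8.12 for Dhcr7, also below every control retina. Cyp51, at 18.6 and 21.5 CPM per kb, was above every control retina, and Idi1, at 3.04 and 3.59, lay within their range. The regulators were thus the genes that stood lowest in sorted rods relative to retina. Rods and retinas, however, were prepared with different library kits and scaled separately, so that cell type, kit and scaling cannot be told apart. No test was made. Summed rod markers were 54062 to 82911 CPM in the 4 sorted libraries and summed Müller glia markers 278 to 490 CPM, against 4688 to 10733 CPM for Müller markers in retinas.

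**Figure D1:**
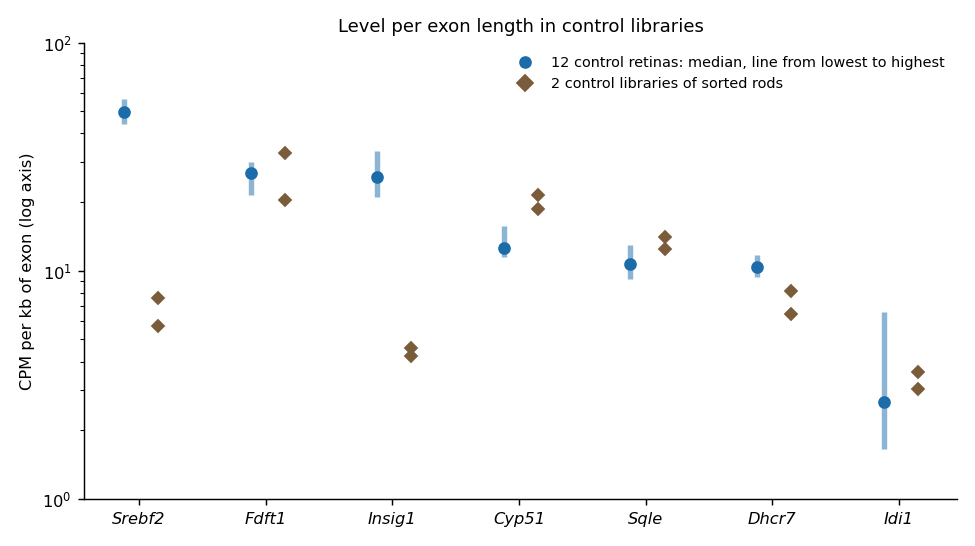
Level of 7 cholesterol genes in CPM per kb of exon on a log axis, for 12 control retinas (circle: median, line: lowest to highest) and 2 control libraries of sorted rods (diamonds). Srebf2 and Insig1 lie below the retina range in sorted rods, and Cyp51 lies above it. Retinas and sorted rods were scaled separately.

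UNC1999 gave the largest median change of the 7 genes among the 4 inhibitors given in whole-retina experiments, and all 7 were higher in each of 3 treated libraries than in each of 3 controls. Such a separation upwards was seen in 13.9% of the 15775 genes tested. Log2 fold changes ran from 0.25 for Srebf2 to 0.61 for Dhcr7, with a median of 0.40, against a median of -0.00199 over all genes. Only Insig1 passed an adjusted p of 0.05 in the edgeR quasi-likelihood test, where 0.501% of genes were called higher and 0.101% lower, and all 7 had an unadjusted p under 0.05, as did 3728 of all genes.

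Insig1, the gene of the sterol-sensing retention protein, had 65.8, 65.7 and 70.7 CPM in controls and 100.1, 97.6 and 109.8 CPM with UNC1999. The groups were far apart, and the fold change was 1.52 (log2 0.61, SE 0.066, adjusted p = 0.0147, edgeR). Srebf2 had 248, 233 and 247 CPM in controls and 289, 279.8 and 297 CPM in treated retinas. Its groups were separate too, with the smallest change of the 7 genes (log2 0.25, SE 0.059, adjusted p = 0.0686, edgeR).

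Among the enzymes, Dhcr7 had 37.2, 33.5 and 41.5 CPM in controls and 63.4, 51.7 and 56.8 CPM with UNC1999. This was the largest change of the 7 genes, 1.53-fold (log2 0.61, SE 0.10), but with a wider spread than Insig1, and its adjusted p was 0.0516 in edgeR. Idi1 went from 17.1, 15.7 and 18.1 CPM to 21.8, 23.8 and 27.5 CPM (log2 0.52, SE 0.11, adjusted p = 0.0582, edgeR). Fdft1 went from 76.1, 78.7 and 81.7 CPM to 95.7, 99.1 and 111 CPM (log2 0.37, adjusted p = 0.0533, edgeR). The lowest treated library lay above the highest control for each of these 3 genes. Cyp51 and Sqle were closer, with their lowest treated libraries at 72.2 and 73.1 CPM and their highest controls at 65.4 and 69.0 CPM (log2 0.40 and 0.32, adjusted p = 0.0603 and 0.0888, edgeR).

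How many of the 7 genes passed with UNC1999 depended on the test and on single libraries, while no sign turned in the alternatives computed for it. The edgeR likelihood ratio test and DESeq2 each called 7 of 7 higher, and their calls over all genes are not given here. In the quasi-likelihood test 6 passed without control replicate 3, where 2707 of all genes were called. Without UNC1999 replicate 1, 1 passed, with 28 of all genes called. A total of 0 passed without control replicate 1, control replicate 2, UNC1999 replicate 2 or UNC1999 replicate 3. In these fits 15, 4, 5 and 18 of all genes were called, in that order. The summed level of 8 RPE markers was 106 to 128 CPM in controls and 355 to 410 CPM in treated retinas, with 6 of 8 markers called higher, and summed rod markers were 18630 to 35658 CPM and 48566 to 66579 CPM. The part of these cell types in the change of the cholesterol genes was not tested, and in bulk tissue fewer cells of a type and less RNA per cell cannot be told apart.

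**Figure D2:**
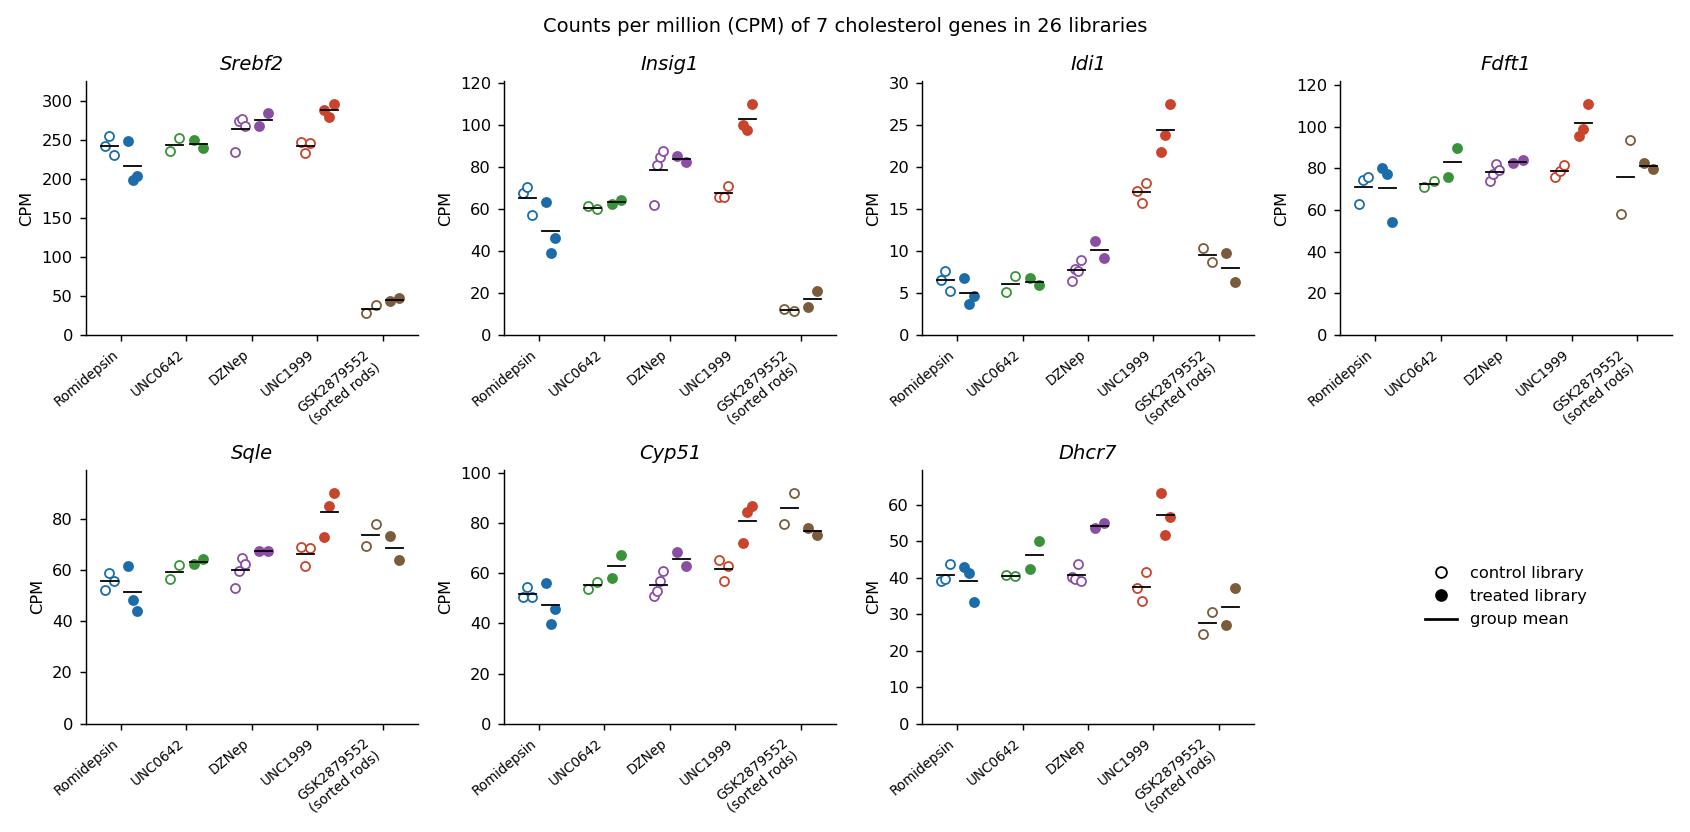
CPM of 7 cholesterol genes in 26 libraries, with open circles for controls, filled circles for treated libraries and black lines for group means. Each experiment was scaled on its own, and the 3 UNC1999 retinas lie above their 3 controls in every panel.

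With DZNep, the other EZH2 inhibitor, Dhcr7 and Cyp51 rose and the remaining 5 genes did not pass. All 7 log2 fold changes were positive, from 0.07 (Srebf2) to 0.42 (Dhcr7) with a median of 0.17, against a median of -0.000570 over 16477 genes. Of all genes, 12.9% were called higher and 9.72% lower, and the 2 of 7 genes called higher stand beside that 12.9%. In 5 of the 7 genes both treated libraries lay above all 4 controls, which held for 24.4% of all genes. With the controls of the Romidepsin and UNC0642 experiments added, the median was 0.29.

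Dhcr7 had 40.2, 39.7, 43.8 and 39.0 CPM in controls and 53.7 and 55.1 CPM with DZNep. The treated libraries stood well above the controls, at 1.34-fold (log2 0.42, SE 0.061, adjusted p = 0.00224, edgeR), and Dhcr7 passed without any 1 of the 6 libraries (highest adjusted p 0.0272). Cyp51 had 51.1, 53.1, 56.9 and 60.8 CPM in controls and 68.4 and 62.8 CPM in treated retinas. The gap between these groups was narrow (log2 0.24, SE 0.075, adjusted p = 0.0465, edgeR), and the call was lost without control replicate 1, 2 or 3 or either DZNep library, with adjusted p up to 0.311.

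Neither regulator passed with DZNep. Srebf2 had 235, 275, 277 and 269 CPM in controls and 269 and 285 CPM in treated retinas, and Insig1 had 61.7, 80.7, 84.8 and 87.3 CPM in controls and 85.2 and 82.3 CPM in treated retinas. Both groups overlapped for both genes (adjusted p = 0.529 and 0.615, edgeR), and control replicate 1 was the lowest control for each. Without it, the log2 fold change of Insig1 was -0.00835. Idi1 had 6.42 to 8.91 CPM in controls and 11.1 and 9.16 CPM with DZNep. Its change was the second largest (log2 0.41, SE 0.14, adjusted p = 0.0715, edgeR). Idi1 passed only without control replicate 4 (adjusted p = 0.0464, edgeR), where 3 of the 7 genes passed and 2924 of all genes were called.

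RPE markers summed to 55.2 to 155 CPM in the DZNep controls and 193 to 276 CPM in treated retinas, with 5 of 8 called higher, while Müller markers summed to 9434 to 9734 CPM and 6548 to 7399 CPM, with 7 of 8 called lower. Rod markers summed to 17459 to 29277 CPM in controls and 54452 to 56120 CPM with DZNep. Lens markers reached 70.9 CPM in 1 treated library, against 1.43 CPM in the other and at most 2.67 CPM in controls. Their part in the changes of Dhcr7 and Cyp51 was not tested.

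With UNC0642, none of the 7 genes passed. All 7 log2 fold changes were positive, from 0.01 (Srebf2) to 0.20 (Fdft1) with a median of 0.09, and adjusted p ran from 0.380 to 0.979 in edgeR, where 0% of the 16321 genes were called in either direction. No cholesterol gene had an unadjusted p under 0.05, against 2407 of all genes, and the likelihood ratio test and DESeq2 also called 0 of the 7. Both treated libraries lay above both controls for 5 genes, against 26.9% of all genes. Dhcr7, for example, had 40.7 and 40.6 CPM in controls and 42.4 and 50.2 CPM in treated retinas, whereas Idi1 overlapped at 5.09 and 7.04 CPM against 6.75 and 5.90 CPM. The signs of Insig1, Idi1 and Srebf2 turned when the controls of the Romidepsin and DZNep experiments were added, with log2 fold changes of -0.22, -0.20 and -0.11 and a median over the 7 genes of 0.04. Without control replicate 2 the median was 0.18. RPE markers summed to 61.8 to 130 CPM in controls and 148 to 177 CPM with UNC0642, and Müller markers to 7002 to 7894 CPM and 5467 to 5753 CPM, with 0 of 8 called in each list. Their part in these values was not tested.

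With Romidepsin, all 7 log2 fold changes were negative and none passed. They ran from -0.40 (Insig1) to -0.01 (Fdft1) with a median of -0.14, against a median of -0.00881 over 16049 genes, and adjusted p ran from 0.281 to 0.982 in edgeR, where 0.573% of genes were called higher and 0.174% lower. No gene of the 7 had an unadjusted p under 0.05, against 3110 of all genes, and the likelihood ratio test and DESeq2 called 0. No gene had groups that did not overlap, a separation seen downwards in 12.5% of all genes.

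For 5 of the 7 genes (Insig1, Srebf2, Idi1, Sqle and Cyp51) Romidepsin replicates 2 and 3 lay below all controls and replicate 1 did not. This split was seen in the values and not set beforehand. The share of all genes with the same pattern was not computed, so it is not shown to be particular to these genes. Insig1 had 67.4, 70.2 and 57.2 CPM in controls and 63.3, 38.9 and 45.9 CPM with Romidepsin, with replicate 1 among the controls. Srebf2 had 243, 255 and 231 CPM in controls and 249, 199 and 204 CPM in treated retinas, and Idi1 had 6.57, 7.64 and 5.22 CPM and 6.73, 3.64 and 4.57 CPM. Over the 7 genes, the mean log2 deviation from the controls was 0.08 in Romidepsin replicate 1, -0.29 in replicate 2 and -0.35 in replicate 3. Without replicate 1 the median log2 fold change was -0.27, against -0.14 with all libraries, and still none passed. With the controls of the UNC0642 and DZNep experiments added it was -0.23. RPE markers summed to 80.7 to 94.2 CPM in controls and 47.1 to 61.1 CPM with Romidepsin, and Müller markers to 8905 to 10733 CPM and 6244 to 7213 CPM, with 0 of 8 called in each list. Their part in these values was not tested.

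**Figure D3:**
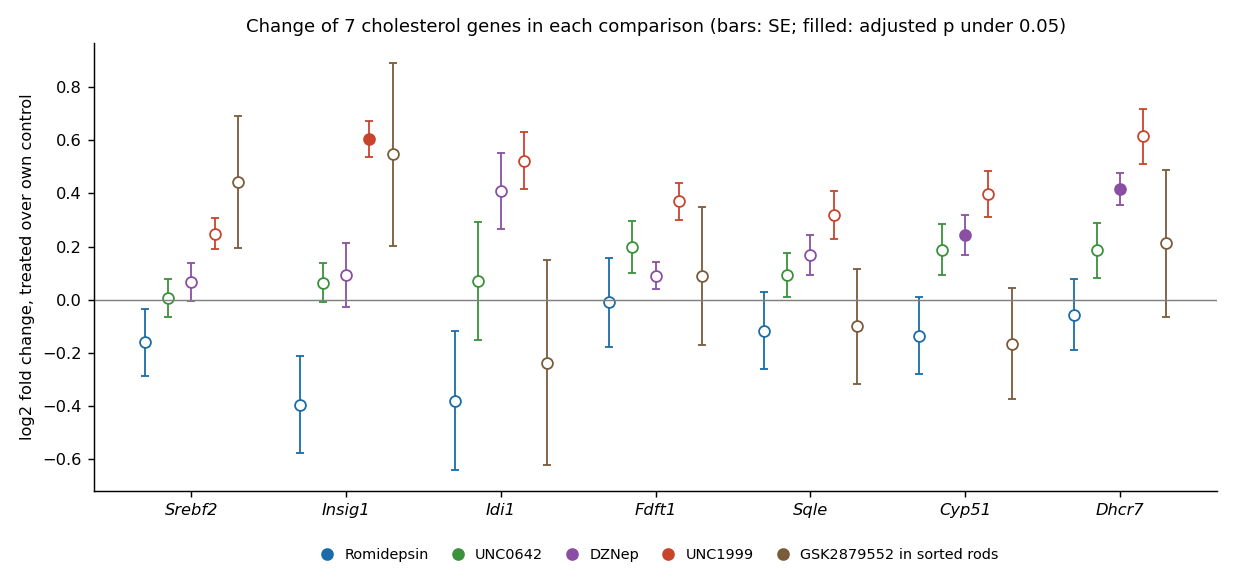
Log2 fold change of each gene, treated over its own controls, in 5 comparisons, with bars for the SE and filled circles for an adjusted p under 0.05. Filled circles mark Insig1 with UNC1999 and Cyp51 and Dhcr7 with DZNep, and all values for Romidepsin lie below 0.

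In sorted rods, no change of the 7 genes with GSK2879552 passed the test, in which 0% of 14478 genes were called in either direction. The log2 fold changes were of mixed sign, 4 positive and 3 negative, from -0.24 (Idi1) to 0.55 (Insig1), and their SE of 0.21 to 0.39 was larger than the 0.059 to 0.11 of the UNC1999 comparison. Adjusted p ran from 0.987 to 0.995 in edgeR, 0 of the 7 had an unadjusted p under 0.05 (711 of all genes did), and the likelihood ratio test and DESeq2 called 0. Insig1 had 12.2 and 11.2 CPM in controls and 13.2 and 21.1 CPM in treated rods, and Srebf2 had 28.5 and 38.1 CPM against 43.2 and 47.6 CPM. The treated libraries were above both controls for these 2 regulators, which held for 15.9% of all genes. Cyp51 was below both controls, at 78.2 and 75.4 CPM against 79.9 and 92.2 CPM, which held for 17.3% of all genes. Müller markers summed to 278 to 409 CPM in controls and 458 to 490 CPM with GSK2879552, vascular markers to 42.7 to 45.5 CPM and 61.0 to 65.1 CPM, reactive gliosis genes to 134 to 202 CPM and 36.9 to 52.7 CPM, and cone markers to 1741 to 3095 CPM and 1075 to 1474 CPM, with 0 genes of each list called. RPE markers summed to 5.27 to 6.03 CPM over the 4 libraries. Their part in these values was not tested.

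The study also required an absolute log2 fold change above 1, and none of the 7 genes met this in any comparison. With this threshold added to the quasi-likelihood test used here, 0.561% of genes were called for Romidepsin and 0% for UNC0642. The share was 1.71% for DZNep, 0.368% for UNC1999 and 0% in sorted rods. The study applied the threshold to edgeR's likelihood ratio test instead, and it reported changed genes for UNC0642 and in sorted rods too.

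Whether the inhibitors differed in their effects was tested in 1 fit of the 22 retinas, for 6 pairs of inhibitors, each effect being taken against its own controls. Romidepsin and UNC1999 differed for 4 of the 7 genes, Insig1, Dhcr7, Cyp51 and Srebf2, against 5.11% of 17274 genes. All 7 differences (Romidepsin effect less UNC1999 effect) were negative, with a median of -0.53. For Insig1, the Romidepsin effect was -0.39 and the UNC1999 effect 0.61 on the log2 scale, a difference of -0.9995 (SE 0.19, adjusted p = 0.00761, edgeR). For Dhcr7 the difference was -0.67 (SE 0.15, adjusted p = 0.0139, edgeR), and most of it lay in the UNC1999 effect of 0.62.

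For Cyp51 the difference was -0.53 (SE 0.15, adjusted p = 0.0436, edgeR) and for Srebf2 -0.41 (SE 0.11, adjusted p = 0.0409, edgeR). These 2 calls were the less stable: Srebf2 lost its call on leaving out 16 of the 22 retinas, one at a time, and Cyp51 on leaving out 15, whereas Insig1 and Dhcr7 kept theirs in all 22. Idi1 differed by -0.90 but with a wide SE of 0.26 (adjusted p = 0.0545, edgeR). Sqle and Fdft1 differed by -0.43 and -0.38 (adjusted p = 0.0988 and 0.183, edgeR). Leaving out 1 retina gave 2 to 6 genes that differed, with 292 to 2049 of all genes called. Both highest numbers came without Romidepsin replicate 1, against 883 of all genes called with every retina kept.

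**Figure D4:**
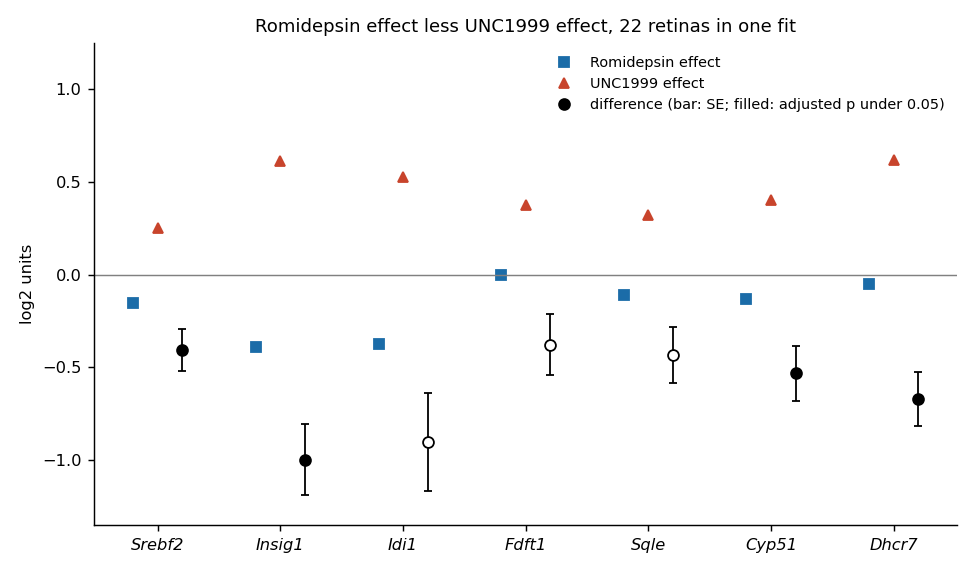
Effects of Romidepsin (squares) and UNC1999 (triangles) on 7 genes in log2 units, and their difference (circles, with SE bars; filled where adjusted p is under 0.05). The difference is negative for every gene and filled for Srebf2, Insig1, Cyp51 and Dhcr7.

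In the other 5 pairs none of the 7 genes passed. The shares of all genes called were 0.0174% for Romidepsin less UNC0642, 0.289% for Romidepsin less DZNep, 0.0232% for UNC0642 less DZNep, 0.0116% for UNC0642 less UNC1999 and 0.00579% for DZNep less UNC1999. Between Romidepsin and DZNep, 4 of the 7 genes had an unadjusted p under 0.05, and the number among all genes at that level is not given here. The largest difference was that of Idi1 (-0.79, SE 0.28, adjusted p = 0.199, edgeR). Without Romidepsin replicate 1, 3 of the 7 genes passed and 662 of all genes were called, against 50 with every retina kept. Between the 2 EZH2 inhibitors, all 7 differences (DZNep effect less UNC1999 effect) were negative, from -0.51 for Insig1 (SE 0.20, adjusted p = 0.414, edgeR) to -0.11 for Idi1. These tests do not show that the effects were alike.

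A wider list of 16 other synthesis genes, from acetyl-CoA to cholesterol, had a median of the same sign as that of the 7 genes in each of the 4 retina comparisons. With UNC1999 its median log2 fold change was 0.33, with 15 of 16 positive, 10 with an unadjusted p under 0.05 (against 3728 of 15775 genes) and 1 called higher (against 0.501% of genes), the lanosterol synthase gene Lss (59.8 ± 1.14 to 84.9 ± 7.97 CPM, SD, n = 3 each, log2 0.51, adjusted p = 0.0408, edgeR). With DZNep the median was 0.13 and 4 of 16 were called higher, against 12.9% of all genes, among them the farnesyl diphosphate synthase gene Fdps (log2 0.30), the sterol reductase gene Lbr (0.27) and Lss (0.25). The call of Lss with UNC1999 was kept only without control replicate 3, and with DZNep the calls of Fdps and Lbr were each lost on leaving out 3 of the 6 libraries and that of Lss on leaving out DZNep replicate 1. With UNC0642 the median was 0.17 and with Romidepsin -0.11, with 0 called in either, and in sorted rods it was -0.09 over 15 genes, with 0 called.

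Of 19 genes of sterol sensing and lipoprotein uptake, 18 were tested in each retina comparison. DZNep raised 5, against 12.9% of all genes, the largest being those of the lipoprotein receptor genes Vldlr (log2 0.68) and Scarb1 (0.51) and of Srebf1 (0.50), which encodes the SREBP of fatty acid synthesis. Romidepsin and UNC0642 called 0 of 18, and GSK2879552 called 0 of 16 in sorted rods.

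Among all genes DZNep called 12.9% higher and 9.72% lower. Of 12 genes of sterol efflux, lipid carriage and oxysterols, it called 2 higher, the transporter genes Abcg4 (log2 0.40) and Abcg1 (0.24), and 3 lower, the apolipoprotein genes Apoe (-0.79) and Clu (-0.51) and the transporter gene Abca1 (-0.61). Apoe is also on the Müller glia marker list, of which 7 of 8 were called lower with DZNep. UNC1999 called 0 of 12, with a median of -0.31. Of 12 fatty acid synthesis genes, UNC1999, which called 0.501% of all genes higher and 0.101% lower, called the desaturase gene Scd1 higher (log2 0.75) and the elongase gene Elovl5 lower (-0.41), and DZNep called 3 higher, Me1 (0.40), Acly (0.26) and Acaca (0.25), and 2 lower, Elovl5 (-0.45) and Thrsp (-0.35). With UNC1999 the calls of Scd1 and Elovl5 were each kept only without control replicate 3, and with DZNep the calls lost on leaving out 1 library were those of Thrsp (3 of 6 libraries) and of Abcg1, Me1, Acly and Acaca (1 library each). The other 3 comparisons called 0 genes in both lists.

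The 7 genes varied together over the 22 retinas. Each library was expressed as its log2 deviation from the mean of its own controls, and the correlation of each gene with the mean of the other 6 had a Pearson r of 0.73 (Fdft1), 0.79 (Dhcr7), 0.86 (Idi1), 0.91 (Insig1), 0.93 (Cyp51), 0.93 (Srebf2) and 0.94 (Sqle). The mean deviation of the 7 genes was 0.37 to 0.53 in UNC1999 retinas, 0.20 to 0.25 with DZNep, 0.08 to 0.16 with UNC0642 and -0.35 to 0.08 with Romidepsin, and controls lay between -0.15 and 0.09. These r values are descriptions, since libraries of an experiment share their control mean and the treatments set much of the spread.

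Among 15368 other genes, those whose deviations were most like the mean of the 7 genes included some that were on none of the pathway lists. These were Slco1c1 (Pearson r 0.91, Spearman 0.80), a thyroid hormone transporter, Gm9840 (r 0.89), Stra6 (0.88), the receptor for retinol-binding protein, Sema3c (0.88), a secreted semaphorin, and Cpxm2 (0.88). The size of the deviations differed from that of the 7 genes: in UNC1999 retinas Slco1c1 ran from 0.93 to 1.28 and Stra6 from 1.60 to 2.07.

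**Figure D5:**
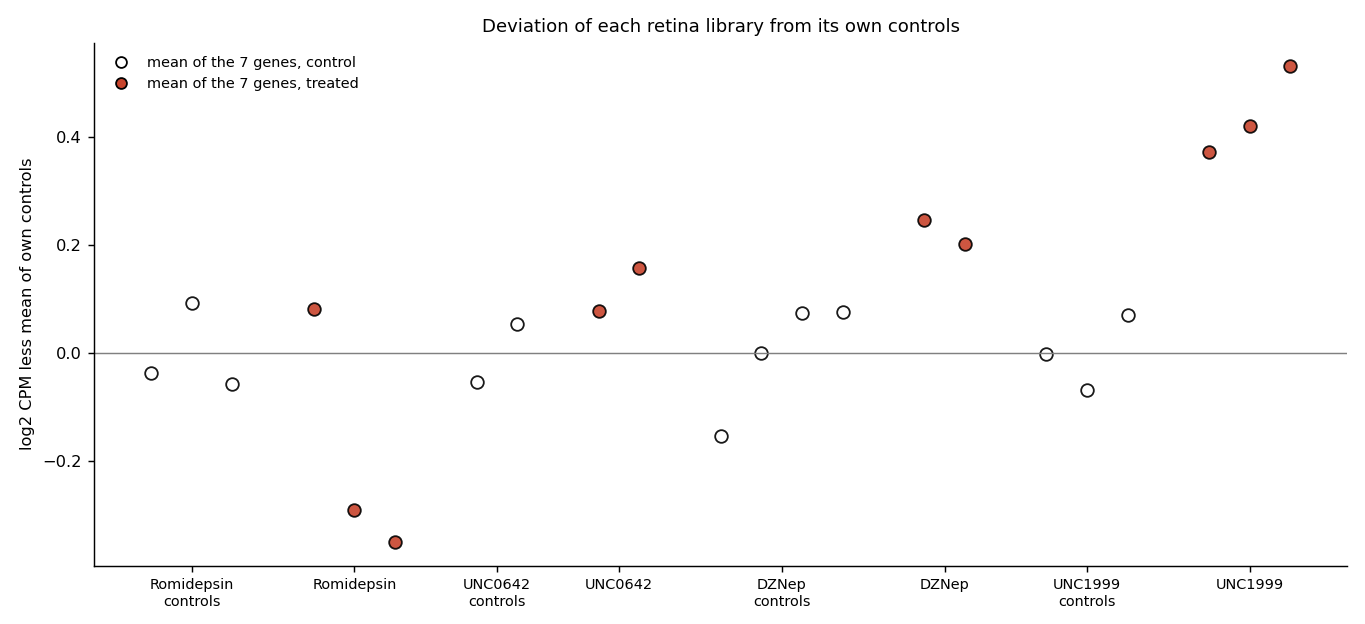
Log2 deviation of each of 22 retina libraries from the mean of its own controls, as the mean of the 7 genes (open circles: controls, filled: treated). UNC1999 retinas lie at 0.37 to 0.53, and 2 of 3 Romidepsin retinas lie below -0.29.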

How the data were processed

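Whole rd10 retinas (22 libraries) and sorted rods (4) were measured by polyA RNA-seq. The authors deposited raw read counts per Ensembl gene, made with HISAT2 2.2.1 and HTSeq 0.11.2 against NCBIM37 (mm9) per the labels. Whether reads were counted by strand is not given in the sources used here. Symbols were found for 37205 of 37991 identifiers. Each treatment was compared with its own controls in edgeR 4.0.16 (R 4.3.3): filterByExpr, TMM scaling, quasi-likelihood F test, Benjamini-Hochberg adjustment over all genes tested, threshold 0.05. Where a standard error (SE) is given, it is the log2 fold change divided by the square root of F. Differences of effects came from 1 fit of the 22 retinas. CPM values use TMM library sizes, and log2 deviations a prior count of 2. Per-kb levels use the merged exons of the gene model. Results were recomputed with other filters, RLE scaling, a replicate block, other control sets, each library left out in turn, DESeq2 1.42.0 and edgeR's likelihood ratio test. The scripts were tested on simulated data. The 8 genes and the pathway lists were chosen with earlier results of these data known. Named genes are the members, up to 3 per pathway list, comparison and direction by size among those called, and the 8 most alike genes, some of which are not reported here. Replicates are labelled biological, with no animals named. Every replicate pair differed by more than counting noise.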

Additional observations from a re-analysis of the deposited data

Results flagged for a closer look

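Among the 7 cholesterol genes, 4 differed between the effects of Romidepsin and UNC1999 by a test of the difference itself: Insig1 (-0.9995 on the log2 scale), Dhcr7 (-0.6687), Cyp51 (-0.5331) and Srebf2 (-0.4071), each as Romidepsin effect less UNC1999 effect. The Romidepsin effect was below 0 and the UNC1999 effect above it for each of the 4 genes. Against its own controls, however, no Romidepsin effect passed, and the UNC1999 effect passed for Insig1 only. Summed RPE markers moved the same way, lower with Romidepsin and higher with UNC1999 in every treated library than in its controls, and their part in the difference was not tested. The experiments also differ in library series and in vehicle, which cannot be told apart from the compounds. A test for a single far sample was made only in the 4 DZNep controls, and none stood apart for any of the 7 genes. Groups with fewer libraries were not tested.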

How the results depend on the processing

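Counts of genes called were within 1.5 times those reported in 166 recomputed cases and not in 24. Most reported counts were 0, and a 0 that stayed 0 was taken as within, so the 166 say little about the counts above 0. For UNC1999, where 1 gene was called higher, the likelihood ratio test called 7, DESeq2 7, no filter on low counts 5, the fit of all 22 retinas 4, RLE scaling 2 and a minimum of 10 counts 2, an added log2 threshold of 1 left 0, and leaving out 1 library gave 0 to 6. For DZNep, where 2 were called, the fit of all 22 retinas called 1, the added threshold 0, and leaving out 1 library 1 to 3. For Romidepsin less UNC1999, where 4 differed, no filter left 2, the added threshold 0, and leaving out 1 retina 2 to 6. For Romidepsin less DZNep, where none differed, leaving out 1 retina gave 0 to 3. Calls over all genes moved too, and are given here only for leaving out 1 library. The counts of the 7 genes under the other tests, filters, scaling and the fit of all 22 retinas therefore stand without a share of all genes. For UNC1999, 2707 of all genes were called without control replicate 3, where 6 of the 7 passed. For DZNep, leaving out 1 library gave 1082 to 4537 of all genes called. For Romidepsin less UNC1999, 2049 of all genes were called without Romidepsin replicate 1, against 883 with every retina kept. For Romidepsin less DZNep, 662 were called without that retina, against 50. The causes were not tested.

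Replicate numbers did not pair the samples (the correlation of same-numbered deviations ran from -0.351 to 0.255 for Romidepsin and from -0.313 to 0.268 for UNC1999). With the number as a block, 1 gene, Insig1, differed for Romidepsin less UNC1999. The counts of the 7 genes called in the 5 comparisons did not change. The median log2 fold change with DZNep was 0.26 with the block, against 0.17 without it. DZNep control replicates 3 and 4 share their number with no treated library and so do not inform that block estimate.

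Signs turned for single genes that had not passed. Leaving out 1 library gave log2 fold changes from -0.114 to 0.156 for Fdft1 and from -0.127 to 0.0545 for Dhcr7 with Romidepsin, from -0.152 to 0.315 for Idi1 and from -0.0452 to 0.0554 for Srebf2 with UNC0642, and from -0.00835 to 0.146 for Insig1 with DZNep. In sorted rods the range was -0.590 to 0.0381 for Idi1, -0.212 to 0.477 for Fdft1 and -0.0275 to 0.429 for Dhcr7. Fdft1 with Romidepsin was 0.00446 with a minimum of 10 counts. With UNC0642, adding the other controls gave -0.221 for Insig1, -0.205 for Idi1 and -0.115 for Srebf2, and Srebf2 was -0.00333 in DESeq2 and -0.00251 without a filter.

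The lowest total counts were those of a control and a treated library of sorted rods, 7289460 and 9724672. The other sorted rod libraries, at 17371857 and 19864491, lay within the range of the retinas. Standard errors of the 7 genes were largest in sorted rods, at 0.21 to 0.39.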
